A study of Mus musculus with 6 samples.

Results

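The cathepsins, the subunits of the vacuolar proton pump and a small set of cathepsin inhibitors were followed in gonadal white adipose tissue (GWAT). Members were taken by gene symbol. They were the symbols made of Cts and a single letter or digit, those starting with Atp6v0 or Atp6v1, *Atp6ap1*, *Atp6ap2* and the inhibitors *Cst3*, *Cst7* and *Cstb*. Of 19937 genes on the arrays, 46 met this rule, and they comprised 20 cathepsin genes, 23 pump genes and 3 inhibitor genes. Leptin-deficient *ob/ob* mice were compared with *ob/ob/Fsp27-/-* mice, which lack both leptin and Fsp27, the lipid droplet protein encoded by *Cidec*. All mice were chow-fed males on a C57BL/6J background, 4 months old, and there were 3 arrays per genotype. Both genotypes lack leptin, and no lean group was used here. The study describes smaller fat depots in *ob/ob/Fsp27-/-* mice, so that genotype and depot size cannot be told apart in these arrays. According to the study's methods each array held RNA pooled from several mice, which the labels do not mention, so n counts arrays and tells nothing of how single mice vary. Values are log2 intensities from the Robust Multi-array Average (RMA) algorithm. A level can be compared between genotypes for the same gene but not between genes. The correlation between arrays of the same genotype, across probesets, was 0.988 or higher, against 0.943 to 0.965 between genotypes. The *Cidec* probeset read 11.49, 11.78 and 11.98 in *ob/ob* and 11.34, 11.51 and 11.53 in *ob/ob/Fsp27-/-* mice, so that it did not part the genotypes, and where its probes lie relative to the disrupted part of the gene is not given in the annotation used.

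Cathepsins are proteases that work mainly in lysosomes, where they break down proteins delivered by endocytosis, phagocytosis and autophagy. Most are cysteine proteases, and a few are aspartic or serine proteases. The acid pH they need is made by the vacuolar proton pump, which consists of a cytosolic V1 sector that hydrolyses ATP and a membrane-bound V0 sector that carries protons. Several subunits exist as isoforms encoded by separate genes, some present in nearly all cells and others restricted to a tissue. In obese adipose tissue, macrophages that surround dying adipocytes take up their lipid and hold many lysosomes. Multinucleated cells of the same lineage, the osteoclasts, use *Ctsk* and the pump isoforms encoded by *Atp6v0d2* and *Tcirg1* to resorb bone.

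In *ob/ob/Fsp27-/-* mice 10 of the cathepsin genes were lower than in *ob/ob* mice, led by *Ctsk* and *Ctss*. Of the pump genes 7 were lower, led by *Atp6v0d2*, and the isoforms *Atp6v0a2* and *Atp6v1c2* were higher. A gene was called lower or higher when the limma adjusted p was under 0.05 and the log2 fold change was at least 0.5 in size. Among the 46 members, 18 were lower, 2 were higher and 26 were not called. Over all 19937 genes, 20.4% were called in either direction, with 10.8% lower and 9.58% higher. The 3 arrays of each genotype did not overlap for 24 members, which compares with 46.0% of all genes. Of the 46 members, 14 lay below the median of all values (6.07) in both genotypes, where little signal stands over background, and 38 would have passed a filter at the 30th percentile of all values (4.89).

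**Figure D1:**
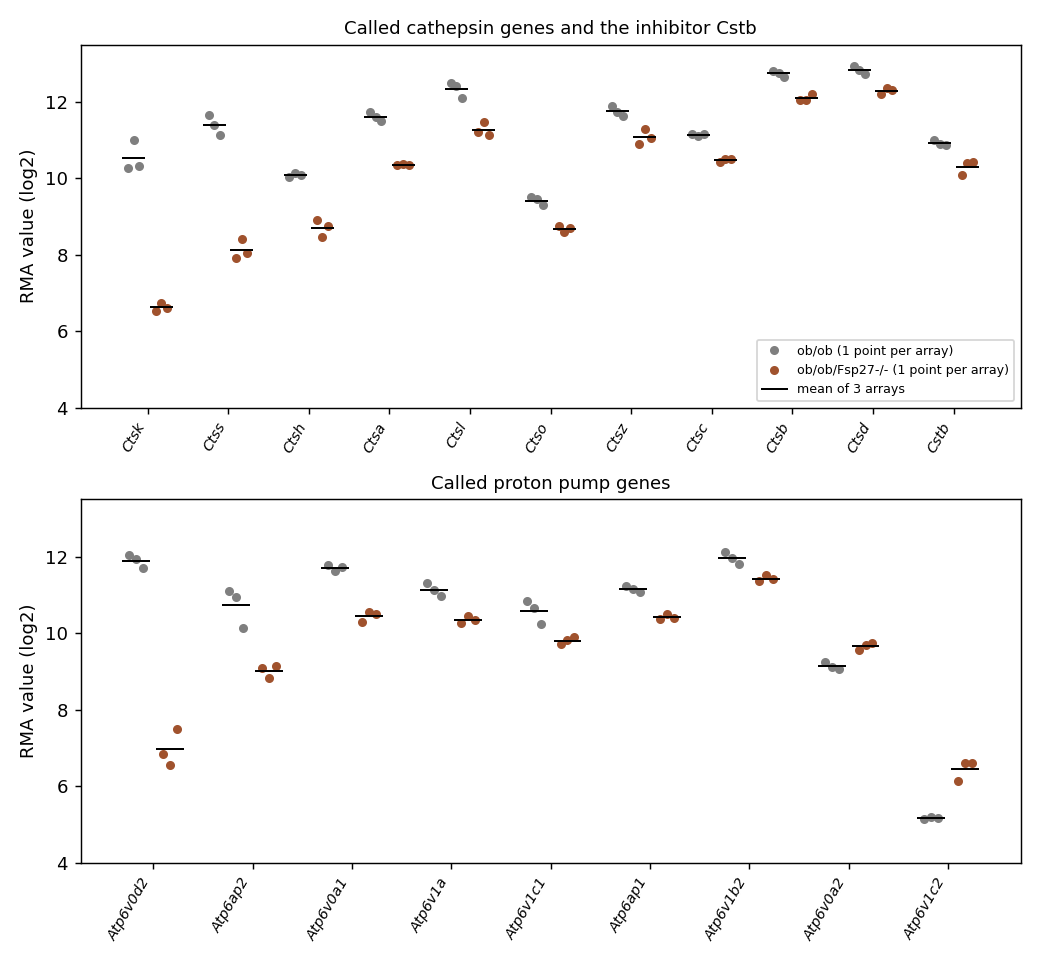
RMA values (log2) of the 20 called members in GWAT, each array drawn as a point (*ob/ob* grey, *ob/ob/Fsp27-/-* brown) and each mean of 3 arrays as a bar. The 11 genes in the upper panel and the first 7 in the lower panel were lower in *ob/ob/Fsp27-/-* mice, *Atp6v0a2* and *Atp6v1c2* were higher, and the genotypes overlap for none of the 20. These genes were picked by the call on the same arrays, and 46.0% of all genes do not overlap.

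Of the 20 cathepsin genes, 10 were lower and none was higher in *ob/ob/Fsp27-/-* mice, with a median log2 fold change of −0.46 against 0.06 over all genes. *Ctsk*, a strong collagenase and elastase of osteoclasts and lipid-laden macrophages, fell most. It read 10.27, 11.00 and 10.32 in the *ob/ob* arrays and 6.53, 6.74 and 6.62 in the *ob/ob/Fsp27-/-* arrays, and its lowest *ob/ob* array lay far above every *ob/ob/Fsp27-/-* array. The log2 fold change was −3.90 (standard error 0.195, limma adjusted p = 3.87e-05), or a 14.9-fold lower intensity. *Ctss*, which cuts the invariant chain of MHC class II molecules in antigen-presenting cells, read 11.66, 11.39 and 11.14 against 7.92, 8.42 and 8.04. Its log2 fold change was −3.27 (standard error 0.173, limma adjusted p = 4.77e-05), 9.65-fold lower. These were the 2 cathepsin genes with a decrease above 2 on the log2 scale, and the remaining 8 fell by between 0.55 and 1.38.

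Among the more moderate decreases, *Ctsh* encodes an aminopeptidase. Its values of 10.04, 10.14 and 10.08 in *ob/ob* and 8.90, 8.47 and 8.76 in *ob/ob/Fsp27-/-* mice differed by −1.38 on the log2 scale (standard error 0.120). *Ctsa* encodes a serine carboxypeptidase that also shields lysosomal beta-galactosidase and neuraminidase from degradation. It read 11.73, 11.60 and 11.50 against 10.34, 10.37 and 10.35, which made the log2 fold change −1.25 (standard error 0.0849). The 3 *ob/ob/Fsp27-/-* arrays thus lay close together and well below all *ob/ob* arrays. *Ctsl*, an endopeptidase found in most cells, read 12.49, 12.41 and 12.10 against 11.21, 11.47 and 11.13, and fell by 1.06 on the log2 scale (standard error 0.137). The limma adjusted p was 0.000292 for *Ctsh*, 0.000123 for *Ctsa* and 0.00145 for *Ctsl*.

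The other 5 called cathepsins fell by less than 1 on the log2 scale. *Ctsb*, which acts as both an endopeptidase and a carboxypeptidase, read 12.81, 12.77 and 12.66 in *ob/ob* and 12.04, 12.06 and 12.21 in *ob/ob/Fsp27-/-* mice, and its log2 fold change was −0.64. *Ctsd*, the main lysosomal aspartic protease, read 12.94, 12.85 and 12.74 against 12.20, 12.37 and 12.31, and its log2 fold change was −0.55, just past the fold threshold. *Ctsc*, a dipeptidyl peptidase that activates the granule proteases of leukocytes, differed very little between arrays of a genotype, at 11.15, 11.11 and 11.16 against 10.44, 10.50 and 10.51, a log2 fold change of −0.66. *Ctsz*, a carboxypeptidase, had a log2 fold change of −0.67 and *Ctso*, a cathepsin whose substrates are less well known, −0.73. The limma adjusted p of these 5 genes lay between 0.000649 and 0.00687. None of them overlapped between genotypes, which also held for 46.0% of all genes.

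The 10 cathepsin genes that were not called fell into 2 kinds. *Ctsf*, which like *Ctss* can process the invariant chain, was the only gene among them with a level above the median of all values. It read 7.32, 7.75 and 7.94 in *ob/ob* and 7.59, 7.84 and 7.89 in *ob/ob/Fsp27-/-* mice, with a log2 fold change of 0.11 and a 95% confidence interval from −0.29 to 0.50. The other 9 lay near the lower end of the scale. *Ctsg*, a granule protease of neutrophils and mast cells, had a log2 fold change of −0.37, with values between 4.15 and 5.08, and −0.14 when *ob/ob* array 1 was left out. *Ctse*, an aspartic protease of stomach and lymphoid cells, gave −0.31, a value that rested on *ob/ob* array 1 (6.03, with 5.10 and 5.09 in the other two) and came to 0.00433 without it. *Ctsw*, a protease of cytotoxic lymphocytes, gave −0.22. Beside these values, 5 of 8 mast cell markers were lower, among them *Cpa3* (−2.98), 1 of 12 neutrophil and granule markers was higher, and none of 12 cytotoxic lymphocyte markers was called by limma, although 3 had an unadjusted p under 0.05. Their part in these values was not tested. *Cts6*, *Cts7*, *Cts8*, *Ctsj*, *Ctsq* and *Ctsr* belong to a rodent cluster that is expressed in placenta, and their means lay between 3.32 and 4.44 in both genotypes, with log2 fold changes of 0.02 to 0.24. For *Ctsr* the genotypes did not overlap, but the limma adjusted p was 0.0849. *Cts3* and *Ctsm* share 2 probesets that carry both symbols and were not counted as members.

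Bulk GWAT holds adipocytes, macrophages and other cells, and fewer cells of a type and less RNA per cell cannot be told apart in it. Macrophage markers moved with the cathepsins. Of 25 such markers, 23 were lower and none was higher, and their mean RMA value was 10.26, 10.16 and 10.07 in *ob/ob* and 7.99, 8.12 and 8.08 in *ob/ob/Fsp27-/-* mice, a difference of −2.10. The largest decreases were those of *Itgax* (log2 fold change −3.61), *Itgam* (−3.30), *Msr1* (−3.27) and *Adgre1* (−3.21), and *Cd163* and *Cx3cr1* were the 2 that were not called. The mean of 14 white adipocyte markers moved the other way, from between 10.65 and 11.41 to between 11.85 and 11.93, with 9 of them higher and none lower. Of 12 stromal and endothelial markers, 5 were lower, led by *Col3a1* (−1.66), *Lum* (−1.56) and *Col1a1* (−1.31), and the endothelial genes *Kdr* (1.40) and *Cdh5* (0.64) were higher. Of 8 dendritic cell markers, *Clec9a* (−0.68) and *Xcr1* (−0.56) were lower. The part of any of these shifts in the change of the cathepsins was not tested. Set against the macrophage mean within each array, the 10 lower cathepsins parted in direction. *Ctsk* and *Ctss* fell further than the mean of the markers, and their value minus this mean changed by −1.80 and −1.17. The other 8 fell less than the mean of the markers, and their value minus this mean changed by 0.72 for *Ctsh* up to 1.55 for *Ctsd*. The single markers had log2 fold changes from −3.61 to −0.12, a range that holds *Ctss* (−3.27) and the other 8 genes but not *Ctsk* (−3.90). For *Ctsd* the value minus the macrophage mean was 2.68, 2.69 and 2.67 in the *ob/ob* arrays and 4.21, 4.25 and 4.23 in the *ob/ob/Fsp27-/-* arrays. In each of the 10 genes the 2 sets of differences did not overlap, and the two-sided exact permutation test gave p = 0.1 (adjusted p = 0.1 over the 10 genes), which is the smallest that 3 arrays against 3 allow. The subtracted mean itself parted the genotypes, so a gene that did not change could show the same split. The 10 genes were also picked as lower on these arrays, and no conclusion is drawn from the lack of overlap.

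**Figure D2:**
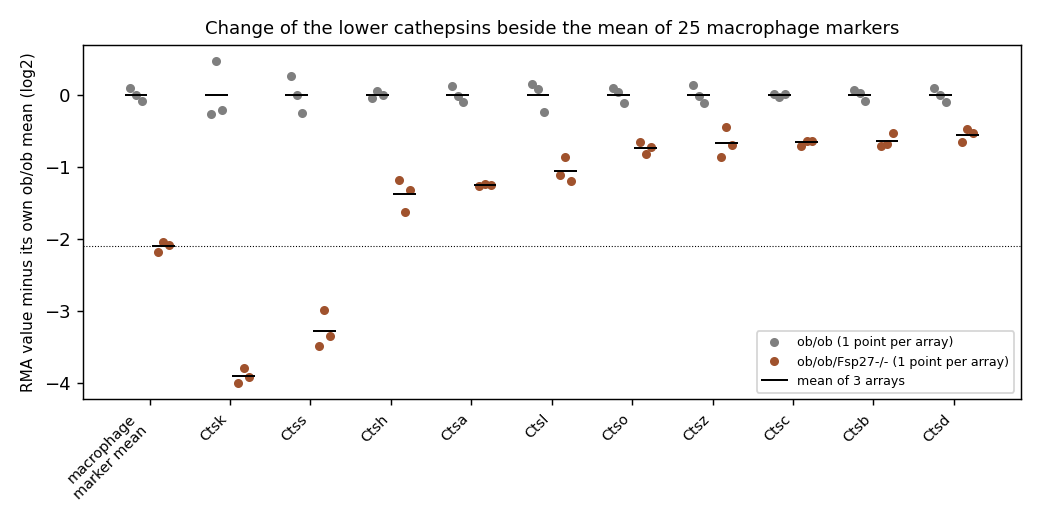
RMA value minus the mean of the *ob/ob* arrays (log2) for the mean of 25 macrophage markers and for the 10 lower cathepsin genes, each array drawn as a point (*ob/ob* grey, *ob/ob/Fsp27-/-* brown), each mean of 3 arrays as a bar, and a dotted line at the change of the macrophage mean (−2.10). *Ctsk* and *Ctss* lie below the dotted line and the other 8 genes above it.

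Of the 3 inhibitor genes, *Cstb* was lower and the other 2 were not called. *Cstb* encodes stefin B, an inhibitor of cysteine cathepsins in the cytosol. It read 11.02, 10.90 and 10.88 in *ob/ob* and 10.09, 10.40 and 10.42 in *ob/ob/Fsp27-/-* mice, so that its log2 value fell by 0.63 (standard error 0.109, limma adjusted p = 0.00514). *Cst3*, the gene of the secreted inhibitor cystatin C, read 12.68, 12.66 and 12.59 against 12.41, 12.44 and 12.34. Its genotypes did not overlap and its limma adjusted p was 0.0463, but the log2 fold change of −0.25 stayed under the fold threshold. *Cst7* encodes cystatin F, an inhibitor of lysosomal cathepsins in immune cells, and its values from 4.89 to 5.27 overlapped between genotypes (log2 fold change −0.09). Of 17 other genes related to cystatins, stefins or cathepsin inhibitors with a probeset of their own, none was called by limma, 1 had an unadjusted p under 0.05, and 13 of them lay below the median of all values.

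Among the 23 proton pump genes, 7 were lower and 2 were higher in *ob/ob/Fsp27-/-* mice. The median log2 fold change was −0.13, against 0.06 over all genes. In the V0 sector, *Atp6v0d2* encodes an isoform of subunit d that is found in osteoclasts and macrophages. It had the lowest log2 fold change of all 46 members, and only 4 of the 19937 genes had a lower one. The *ob/ob* arrays read 12.05, 11.93 and 11.70 and the *ob/ob/Fsp27-/-* arrays 6.84, 6.55 and 7.49, so that the genotypes were separated by more than 4 units at their nearest point. The log2 fold change was −4.94 (standard error 0.233, limma adjusted p = 3.42e-05), a 30.6-fold lower intensity. *Atp6v0a1*, an isoform of subunit a, read 11.79, 11.64 and 11.73 against 10.29, 10.54 and 10.49, and fell by 1.28 on the log2 scale (standard error 0.0956, limma adjusted p = 0.000168).

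The 3 lower genes of the V1 sector encode parts of the catalytic head and the stalk that joins it to the membrane. *Atp6v1a* encodes the catalytic subunit A. It read 11.31, 11.14 and 10.96 in *ob/ob* and 10.26, 10.45 and 10.35 in *ob/ob/Fsp27-/-* mice, with a log2 fold change of −0.79 (limma adjusted p = 0.00202). *Atp6v1b2*, the widely expressed isoform of the nucleotide-binding subunit B, read 12.14, 11.96 and 11.82 against 11.35, 11.52 and 11.42, a log2 fold change of −0.54 (limma adjusted p = 0.00756). The change came to −0.46 when *ob/ob* array 1 was left out, which is under the fold threshold. *Atp6v1c1*, an isoform of subunit C, read 10.85, 10.66 and 10.23 against 9.71, 9.81 and 9.89, a log2 fold change of −0.77 (limma adjusted p = 0.00956). Both accessory proteins were lower as well. *Atp6ap2* encodes the prorenin receptor, which takes part in the assembly of the pump, and it read 11.10, 10.95 and 10.14 against 9.09, 8.82 and 9.14. The *ob/ob* arrays of *Atp6ap2* were spread widely, with array 3 nearest to the *ob/ob/Fsp27-/-* values. The log2 fold change was −1.71 (standard error 0.245, limma adjusted p = 0.00223). *Atp6ap1*, the second accessory protein, read 11.25, 11.15 and 11.07 against 10.38, 10.51 and 10.41, a log2 fold change of −0.72 (limma adjusted p = 0.000928).

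The higher pump genes, 2 of 23 (8.70%, against 9.58% of all genes), were an isoform of subunit C and an isoform of subunit a. *Atp6v1c2*, an isoform of subunit C described in kidney and lung, read 5.14, 5.20 and 5.16 in *ob/ob* and 6.14, 6.60 and 6.60 in *ob/ob/Fsp27-/-* mice. Its log2 fold change was 1.28 (standard error 0.134, limma adjusted p = 0.000608). The *ob/ob* values lay below the median of all values, where little signal stands over background. *Atp6v0a2*, an isoform of subunit a that is known from the Golgi apparatus and endosomes, read 9.24, 9.12 and 9.08 against 9.56, 9.69 and 9.74. The log2 fold change of 0.52 (standard error 0.0871, limma adjusted p = 0.00444) only just passed the fold threshold and missed it when array 3 of either genotype was left out (0.48 in both cases). The second probeset of *Atp6v0a2* gave 0.27, and the mean of both 0.39, which is under the fold threshold.

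**Figure D3:**
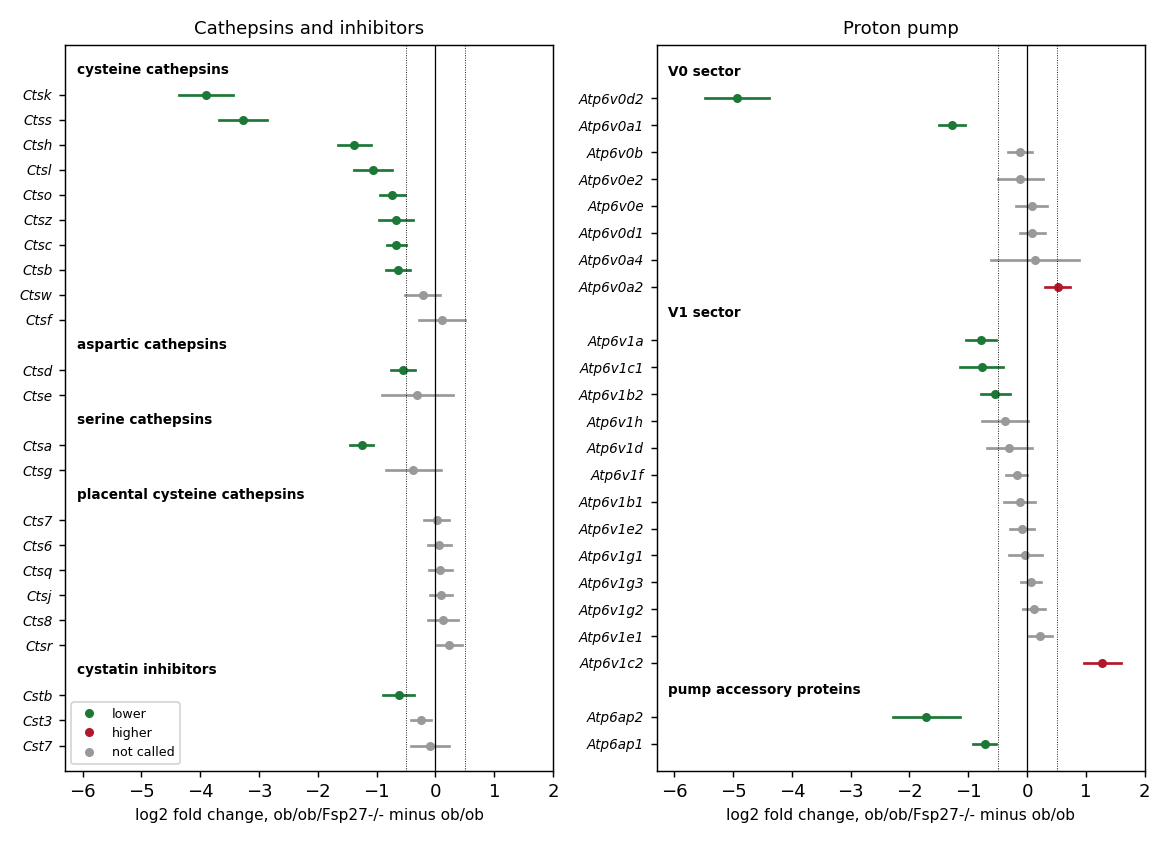
Log2 fold change (*ob/ob/Fsp27-/-* minus *ob/ob*) of all 46 members by role, with 95% confidence intervals from limma as horizontal bars, dotted lines at the fold threshold of 0.5 in each direction, and green for lower, red for higher and grey for genes that were not called. The lower genes spread from −0.54 to −4.94, and the 2 higher genes, *Atp6v0a2* and *Atp6v1c2*, are both pump isoforms.

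The 14 pump genes that were not called had log2 fold changes between −0.37 and 0.22. Among the subunits found in nearly all cells, *Atp6v0d1*, the second isoform of subunit d, read 10.15, 10.17 and 10.20 in *ob/ob* and 10.12, 10.27 and 10.40 in *ob/ob/Fsp27-/-* mice, which gave a log2 fold change of 0.09 with a 95% confidence interval from −0.13 to 0.31. *Atp6v0b* and *Atp6v0e*, smaller membrane subunits, gave −0.13 and 0.08, and the stalk subunits *Atp6v1d*, *Atp6v1e1*, *Atp6v1f* and *Atp6v1g1* gave −0.31, 0.22, −0.18 and −0.03. *Atp6v1h*, a regulatory subunit, had a log2 fold change of −0.37 (limma adjusted p = 0.148). Its *ob/ob* arrays read 10.33, 10.08 and 9.65, and without array 3 the change was −0.55 and was called (limma adjusted p = 0.0122). The tissue-restricted isoforms *Atp6v0a4*, *Atp6v1b1*, *Atp6v1e2* and *Atp6v1g3* had mean values under 6 in both genotypes and were not called, and *Atp6v0e2* and *Atp6v1g2* had log2 fold changes of −0.11 and 0.11. For *Atp6v0a4*, a kidney isoform of subunit a, *ob/ob/Fsp27-/-* array 1 read 6.48 while the other two arrays of this genotype read 5.33 and 5.22. *Atp6v0c*, the subunit of the proton-carrying ring, was not analysed here.

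Isoforms of the same subunit were compared within each array, which removes a difference in scaling that shifts all genes of an array alike. Scaling that depends on intensity is not removed. In each case only the change of the difference between genotypes was read. *Atp6v0d2* minus *Atp6v0d1* went from 1.72 ± 0.203 in *ob/ob* to −3.30 ± 0.407 in *ob/ob/Fsp27-/-* mice (each SD over n = 3 arrays), a change of −5.03. *Atp6v0a1* minus *Atp6v0a2* went from 2.58 ± 0.0733 to 0.78 ± 0.0661, a change of −1.80, and *Atp6v1c1* minus *Atp6v1c2* changed by −2.05. The arrays of the genotypes did not overlap in any of these pairs. Each of them holds a gene called on the same arrays, and 46.0% of all single genes do not overlap either. No share over other gene pairs was computed, and no conclusion is drawn from a lack of overlap in a pair. For *Atp6v1b2* minus *Atp6v1b1* the change was −0.41 and for *Atp6v1e1* minus *Atp6v1e2* it was 0.31, also without overlap, although *Atp6v1b1* and *Atp6v1e2*, like *Atp6v1c2* in *ob/ob*, lay below the median of all values, where the size of a difference is not well determined. The pairs *Atp6v0e* and *Atp6v0e2*, *Atp6v1g1* and *Atp6v1g2*, and *Cst7* and *Cst3* overlapped between genotypes, with changes of 0.20, −0.14 and 0.16. Over these 8 pairs the two-sided exact permutation test gave p = 0.1 at best, the smallest possible with 3 arrays per genotype, and an adjusted p = 0.16, so that none passed 0.05. *Tcirg1*, whose symbol puts it outside the rule, encodes another isoform of subunit a, which serves osteoclasts and macrophages, and it read 10.83, 10.42 and 10.30 against 8.11, 8.41 and 8.09. Its log2 fold change of −2.32 (limma adjusted p = 0.000124) stands beside −1.28 for *Atp6v0a1* and 0.52 for *Atp6v0a2*.

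**Figure D4:**
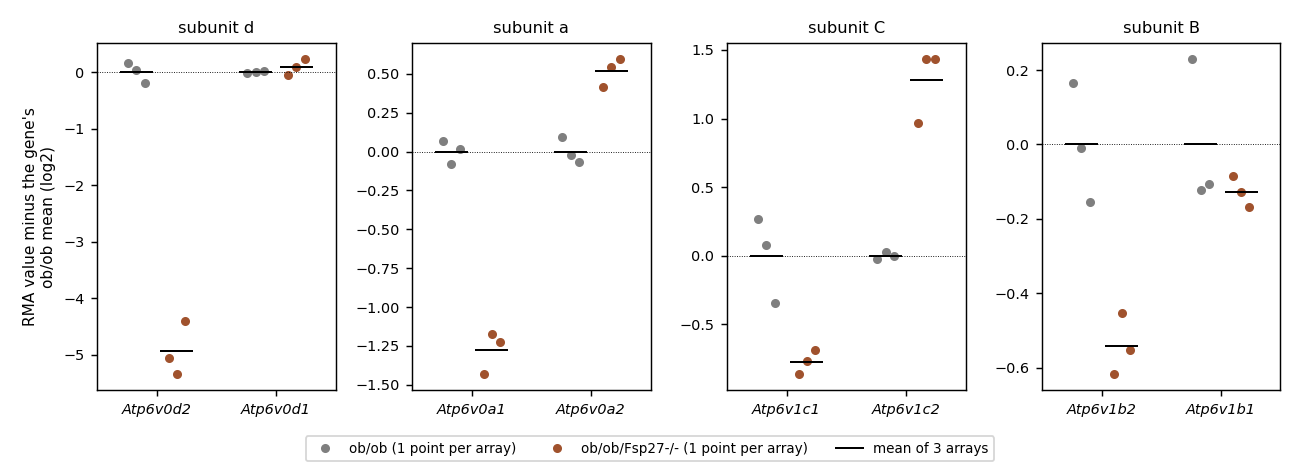
RMA value minus the gene's own *ob/ob* mean (log2) for isoform pairs of pump subunits d, a, C and B, each array drawn as a point (*ob/ob* grey, *ob/ob/Fsp27-/-* brown) and each mean of 3 arrays as a bar. The vertical scales differ between panels, and the 2 isoforms of subunits a and C lie on opposite sides of 0 in *ob/ob/Fsp27-/-* mice.

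Other genes of the lysosome were read from lists written around the members. The counts of these lists, here and in the next paragraph, stand beside 10.8% lower and 9.58% higher over all genes. Of 14 genes for further pump isoforms, assembly factors and related proteins, 4 were lower and 2 higher. Besides *Tcirg1*, the lower ones were *Ncoa7* (log2 fold change −1.06), *Dmxl1* (−0.64) and *Vma21* (−0.64), the last of which encodes a chaperone of V0 assembly. The higher ones were *Tmem9* (0.61) and *Dmxl2* (0.59), which is a relative of *Dmxl1* in the complex that reassembles the pump. Among 12 lysosomal ion channels and transporters, 5 were lower and none was higher, led by *Mcoln2* (−1.56), a calcium channel of the mucolipin family, *Tpcn2* (−1.32), a cation channel, and the transporter genes *Slc29a3* (−0.66) and *Slc38a9* (−0.61). *Clcn7*, the chloride and proton exchanger of the lysosome, had a log2 fold change of −0.77 that was not called (limma adjusted p = 0.0826), with *ob/ob* arrays spread over 9.93, 9.37 and 8.69.

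Of 14 genes for the sorting and processing of lysosomal proteases, 6 were lower and 1 was higher. *Lgmn* encodes legumain, the protease that cuts several cathepsins during their maturation. It read 11.81, 11.74 and 11.68 in *ob/ob* and 9.56, 9.59 and 9.56 in *ob/ob/Fsp27-/-* mice, and fell by 2.18 on the log2 scale (limma adjusted p = 1.65e-05). *Igf2r*, a mannose 6-phosphate receptor that carries cathepsins to lysosomes, fell by 1.20 on the log2 scale, and *Scpep1* (−0.96), a serine carboxypeptidase, and *Psap* (−0.71), the precursor of the saposins, were lower too. *Sort1*, an alternative sorting receptor, was higher (0.57). Of 20 genes of the MiT/TFE transcription factors and lysosomal nutrient sensing, 4 were lower (20%) and 2 higher (10%, near the 9.58% of all genes). These factors switch on many lysosomal genes. *Tfec* and *Mitf*, the members of the family that are typical of macrophages and osteoclasts, had log2 fold changes of −2.30 (limma adjusted p = 0.000529) and −1.96 (limma adjusted p = 0.000332). *Fnip2* (−1.66) and *Rragd* (−0.76), which take part in nutrient sensing, were the other lower genes. *Tfeb* had a log2 fold change of −0.47, just under the fold threshold, and *Tfe3* of −0.14. *Mtor* (0.66) and *Lamtor1* (0.55), genes of nutrient sensing at the lysosomal surface, were higher. Of 18 genes of osteoclasts and multinucleated macrophages, 8 were lower and 2 higher, with *Tm4sf19* (−4.99), *Dcstamp* (−3.04), a fusion protein, and the RANK gene *Tnfrsf11a* (−2.52) at the front. *Acp5*, the tartrate-resistant acid phosphatase of osteoclasts, had a log2 fold change of −0.04 and was not called (limma adjusted p = 0.788). *Car2*, the carbonic anhydrase that feeds protons to the osteoclast pump, was higher (1.98). Several genes stand in more than 1 of these lists.

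Sequence upstream of the start site was available for 35 of the 46 members in the RefSeq promoter table (GRCm38.p6), and 250 bases before each start were searched on both strands. The letters TCACGTGA are the core of the CLEAR element through which MiT/TFE factors are known to act, and they contain the shorter E-box CACGTG. They occurred in 0.907% of the 27025 genes of the table and in *Ctsa*, *Ctsd* and *Atp6v1a*, which are 3 of 35 members. All 3 were lower, and they are 3 of the 12 lower members with sequence in the table. A part of the motif in the decreases was not tested. CACGTG was present in 6 of 35 members, namely these 3 and *Ctsl*, *Ctsf* and *Atp6v0b*, and in 6.86% of all genes. *Ctsf* and *Atp6v0b* were not called. The M-box core TCATGTG was found in 1 member (3.72% of all genes), the AP-1 site TGAGTCA in 0 (5.16%) and the PU.1 site GAGGAAGT in 2 (2.79%). A match is a description of these letters and not evidence of binding. The stretches that hold TCACGTGA are shown 5′ to 3′ on the strand of the gene, with the match in capitals and all lying before the start site.
Ctsa (chr2:164833743-164833772, plus strand): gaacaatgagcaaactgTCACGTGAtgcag
Ctsd (chr7:142387873-142387972, minus strand): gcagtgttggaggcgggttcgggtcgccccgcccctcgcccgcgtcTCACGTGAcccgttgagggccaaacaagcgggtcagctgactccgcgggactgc
Atp6v1a (chr16:44139338-44139437, minus strand): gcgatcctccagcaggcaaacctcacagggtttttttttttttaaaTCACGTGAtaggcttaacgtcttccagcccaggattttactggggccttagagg

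The match ends 6 bases before the start in *Ctsa*, counted from the second of 2 start sites that the table gives for this gene, 92 bases before it in *Ctsd* and 125 bases before it in *Atp6v1a*. For comparison, 100 bases before the start are shown for *Ctsk* and *Ctss*, the lower members with the largest changes among those in the table. The same is shown for *Atp6v1c2*, the pump gene with the largest increase. None of the 5 motifs occurred in the 250 bases searched before the starts of these genes.
Ctsk (chr3:95499110-95499209, plus strand): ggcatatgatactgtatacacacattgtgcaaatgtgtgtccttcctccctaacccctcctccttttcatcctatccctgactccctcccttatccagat
Ctss (chr3:95526686-95526785, plus strand): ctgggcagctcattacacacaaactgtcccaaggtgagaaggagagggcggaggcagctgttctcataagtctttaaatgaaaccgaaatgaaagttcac
Atp6v1c2 (chr12:17324731-17324830, minus strand): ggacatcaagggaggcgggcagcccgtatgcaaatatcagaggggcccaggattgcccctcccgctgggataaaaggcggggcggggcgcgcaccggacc

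Among the lower members, the order of the arrays within a genotype recurred from gene to gene. These genes share the same arrays and were picked by the call on them. The order over all genes was not counted, so the counts have no overall share to stand beside. Within *ob/ob*, array 1 held the highest value for 15 of the 18 lower members, including all 7 pump genes, and array 3 the lowest value for 14 of 18. Of the macrophage markers, array 1 was highest for 15 of 25 and array 3 lowest for 14 of 25. The mean of the white adipocyte markers was lowest in *ob/ob* array 1 (10.65) and highest in *ob/ob* array 3 (11.41), and its part in the order of the arrays was not tested. Within *ob/ob/Fsp27-/-* mice, array 1 held the lowest value for 13 of the 18 lower members. With each array left out in turn, the number of lower cathepsins was 10 every time, and the number of lower pump genes lay between 6 and 8.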

How the data were processed

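RNA from GWAT was hybridized to Affymetrix whole-transcript mouse arrays, 3 per genotype. The authors deposited log2 values that they had background adjusted, quantile normalized and summarized per probeset by RMA (version not given in the sources used here). These values were used without further normalization and lay between 2.388 and 13.57. Array data hold no read depth, so the number of arrays limits the precision.

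Of 34760 probesets, 21640 carried 1 gene symbol, 1321 several and 11799 none, and 21553 were brought to current RefSeq symbols through their Entrez identifiers. The probeset with the highest mean stood for each gene, and 3 members had more than 1. Genotypes were compared with limma 3.58.1 in R 4.3.3 (lmFit, eBayes). Benjamini-Hochberg adjustment ran over all 22961 probesets with at least 1 symbol, before 1 probeset was taken for each of the 19937 genes. Genes were called at an adjusted p below 0.05 if the log2 fold change also reached 0.5 in either direction. Differences between genes within an array were compared by two-sided exact permutation tests. The code was tested on simulated data. No filter on detection was applied.

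The members, the gene lists and the roles were chosen with earlier results of these data known. Every member is given with its values or in a stated range. Of each list, up to 4 called genes with the largest log2 fold changes were named, and further genes were picked after their values were seen. Alternatives were a filter at the 30th percentile, all probesets, 3 other scalings, 3 other variance models or weightings, averaging the probesets of a gene, other fold thresholds and leaving out each array. Figures were drawn with matplotlib 3.10.9.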

Additional observations from a re-analysis of the deposited data

How the results depend on the processing

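With 17 alternatives, the 46 members gave 774 values, of which 757 kept their call or their lack of one, 15 lost their call, 2 gained one and 0 called values reversed. Among the 757, the sign changed in 9 values of 6 members that were not called. Changing the probesets tested, the variance model without array weights or the fold threshold leaves the log2 fold change as it is. The direction could not change in those settings. No scaling shifted the median of all genes by over 0.1, and the largest shift was −0.040, with cyclic loess. Centring on housekeeping genes used the 11 that were measured. These were not all stable, since 1 was higher (*Sdha*, log2 fold change 1.07) and 7 did not overlap between genotypes. Over all genes, 9.58% were higher and 46.0% did not overlap. With the mean of a gene's probesets, 1 pump gene was higher and *Atp6v0a1* minus *Atp6v0a2* changed by −1.67. Without a fold threshold, 2 inhibitor genes were lower, since *Cst3* (−0.25, limma adjusted p = 0.0463) joined *Cstb*, and 3052 genes in all were lower and 2936 higher. With a log2 fold threshold of 1, 5 cathepsins, 3 pump genes and 0 inhibitors were lower and 1 pump gene was higher, with 955 genes lower and 652 higher in all. When each array was left out in turn, the number of higher pump genes was 1 to 2. *Atp6v0a2* missed the fold threshold when array 3 of either genotype was left out, and *Atp6v1b2* missed it without *ob/ob* array 1. The *Atp6v0d2* log2 fold change lay between −5.20 and −4.73 and that of *Ctsk* between −4.03 and −3.67. No paired analysis was possible because the labels give no replicate numbers shared between the genotypes. Signals near background limit the low members, and with 3 pools per genotype small changes may have been missed.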
